A study of Saccharomyces cerevisiae with 2 samples.

Results

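The proteasome genes of budding yeast and their transcriptional activator RPN4 were compared between cells given the superoxide-forming herbicide paraquat and untreated cells. The members are the rows of the deposited table whose name is PRE, PUP, RPN or RPT followed by a number, together with SCL1, SEM1, UMP1, BLM10, ECM29 and UBP6. This rule uses names alone and took 39 of 6142 named rows. They comprise 14 core particle subunits, 19 regulatory particle subunits, 5 assembly chaperones and associated proteins, and RPN4. The paraquat library came from BY4741 cells treated with 2.5 mM paraquat for 8 h in rich glucose medium (YPD), and the other library from BY4741 cells labelled as having no treatment. Both cultures were described as mid-log, at an optical density of 0.3 to 0.5. Each group was 1 library of 1 culture. No sampling time is labelled for untreated cells, and hours in culture and paraquat therefore cannot be told apart. With no replicates there is no test in these data, and intervals on folds cover counting error only.

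The proteasome degrades proteins that carry ubiquitin chains. Its core particle is a barrel of alpha and beta rings in which the beta rings hold the proteolytic sites. The regulatory particle caps the barrel, with a base that unfolds substrates with its ATPase ring and a lid that removes ubiquitin. In yeast, Rpn4 is a short-lived zinc finger activator that binds the proteasome-associated control element (PACE) before proteasome genes and is itself degraded by the proteasome, which forms a feedback loop. The RPN4 promoter is known to be bound by the stress regulators Hsf1, Yap1, Pdr1 and Pdr3.

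PACE, the 9 letters GGTGGCAAA, was searched on both strands from 250 bases before to 50 after each start codon in RefSeq's R64 assembly. The authors' build is not given in the sources used here, so the positions below belong to R64 and not to the deposited table, which holds none. The motif lay before 28 of 39 members (71.8%), against 72 of 6020 promoters (1.20%) in all. It was found for 12 of 14 core and 15 of 19 regulatory particle genes, for ECM29 among the other 5, and not for RPN4. Each of the 28 windows held 1 match, between 76 and 175 bases before the start codon with a median of 114, and 20 matches read in the direction of the gene. Shown here, with PACE in capitals and on the strand that reads it, are the matches of genes whose changes are described below, the highest of the core (SCL1), the lowest of the alpha ring, the base and the lid (PUP2, RPT4, RPN5), a catalytic subunit gene (PRE2) and a scaffold gene whose level hardly differed (RPN2).
SCL1: ctatccttacGGTGGCAAAttggtgtgtg
PUP2: aaccaagaccGGTGGCAAAagagtaacct
PRE2: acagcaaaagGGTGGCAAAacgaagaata
RPT4: ctttcccttcGGTGGCAAAttccactatt
RPN2: atttattttcGGTGGCAAAactggataca
RPN5: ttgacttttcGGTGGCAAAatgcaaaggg

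These windows lie at chrVII:475337-475365 on the plus strand for SCL1, chrVII:999226-999254 on the minus strand for PUP2, chrXVI:732184-732212 on the plus strand for PRE2, chrXV:813802-813830 on the plus strand for RPT4, chrIX:220801-220829 on the minus strand for RPN2 and chrIV:190776-190804 on the plus strand for RPN5. All lie before the start codon of the named gene. PACE stands 100 bases before the start codon of SCL1 and 96 before that of PUP2. The members highest and lowest in the core thus carry the same letters at nearly the same place. The match reads against the direction of SCL1 and in the direction of PUP2.

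RPN4 lies on the minus strand of chromosome IV. Its window held a heat shock element of 3 alternating units, which is GAANNTTC followed by a spacer and one more GAA unit, 9 bases before the start codon. That element was found in 47 of 6020 windows (0.781%) and in 1 of the 39 members. The 45 tested genes outside the members that carry it had a median log2 change (paraquat over untreated) of -0.15. Of these, 17 lay above 0 and 28 below, where 49.7% and 50.3% of all tested genes lay. GAANNTTC alone was found in 709 windows (11.8%) and in 4 of 39 members (10.3%), which are PRE6, PUP2, RPN14 and RPN4. A site for Yap1, TTACTAA, lay 368 bases before the start codon, outside the shorter window. In windows of 600 bases before the start codon, a length chosen after seeing the data, this site was found for 825 of 6018 genes (13.7%) and 8 of 39 members. The Pdr1 and Pdr3 site TCCGCGGA was found in neither RPN4 window, which says only that these exact letters are absent there. The RPN4 sequences are shown because RPN4 is the member with the largest change, with the motif in capitals. The heat shock element is at chrIV:416709-416737 on the plus strand and the Yap1 site at chrIV:417066-417092 on the minus strand.
RPN4 heat shock element: gattgcttGAAAATTCTAGAAaacttttg
RPN4 Yap1 site: gtgatcgctaTTACTAAtagccgttta

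The libraries held 165264107 reads on named genes after paraquat and 164909400 without treatment. Members had between 6784 and 110335 reads in the paraquat library and between 7003 and 94165 in the untreated one, so counting error is small if reads are independent, which copies made by PCR are not. Values are normalized reads, which are read counts divided by 1 factor per library, and log2 changes are paraquat over untreated. On this scale the median gene lay at -0.00. Scaling to total gene reads instead would raise every log2 value by 0.26. BY4741 is of mating type a. Its a-specific genes MFA1, MFA2 and STE2 held 23291 to 92857 paraquat and 29029 to 96762 untreated reads, and the alpha-specific genes MF(ALPHA)1, MF(ALPHA)2 and STE3 held fewer, 46 to 1600 paraquat and 50 to 973 untreated reads. HIS3, which carries a partial deletion in BY4741, held 13669 and 16302 reads.

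After paraquat RPN4 was higher, while the proteasome subunit genes, which it is known to activate, stayed close to their untreated levels. RPN4 (YDL020C) had 31972 normalized reads after paraquat and 19346 without treatment. That is 1.65-fold higher (1.62 to 1.68), a log2 change of 0.72, or 0.98 when scaled to total gene reads. RPN4 had the largest change among the members in either direction and was the 1 member at least 1.5-fold from its untreated level, a distance reached by 13.6% of the 5973 genes that averaged 50 or more normalized reads. It ranked 328 from the top of these genes, so 5.49% were at least as high. In the authors' deposited table its unadjusted p was 0.126 and its adjusted p 0.999, from a comparison of 1 library with 1.

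No member reached 2-fold. The count was 0 of 39, against 4.60% of the 5973 genes, of which 3.08% were at or past 2-fold higher and 1.52% at or past 2-fold lower. According to the authors' deposited table, 0 members had an unadjusted p under 0.05 (130 of all named rows did) and 0 of all named rows an adjusted p under 0.05. The 33 subunit genes had a median log2 change of -0.10, which became 0.16 when scaled to total gene reads. Of them 25 lay below 0, where 50.3% of all tested genes lay, and 8 above 0, where 49.7% lay, and 6 of 33 lay below 0 when scaled to total gene reads, where 21.4% did. Their direction against 0 therefore depends on the scaling, and the order of the members and the place of RPN4 above them do not.

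**Figure D1:**
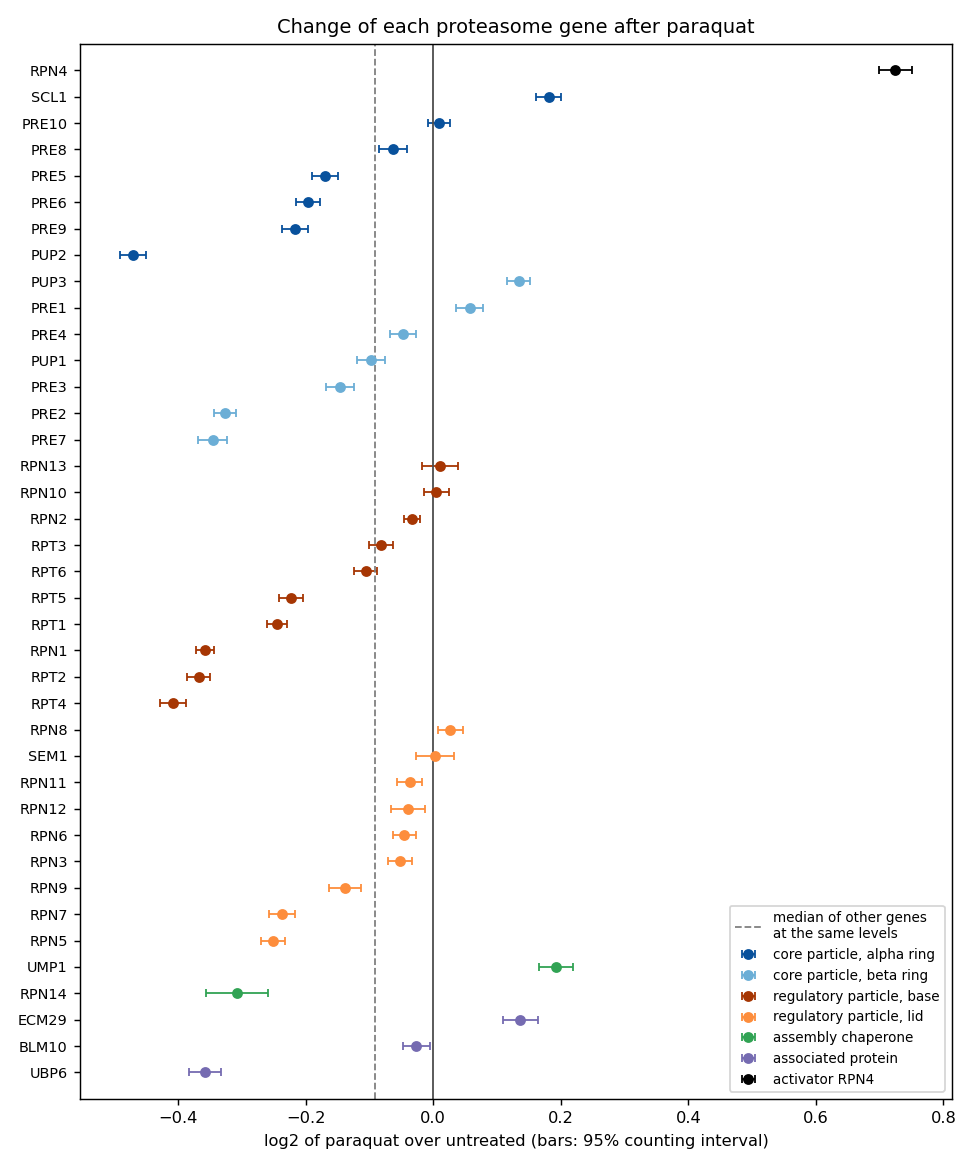
Log2 change of each of the 39 members (x axis, paraquat over untreated) by role, with 95% counting intervals, 1 library per group; the dashed line is the median of other genes at the same levels (-0.09). RPN4 sits at 0.72, and the other 38 lie between -0.47 and 0.19.

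Genes at similar levels had a like centre. The 1344 other genes whose mean lay in the range of the subunits, 18751 to 101937 normalized reads, had a median of -0.09. Of the 33 subunits, 17 lay below that median and 16 above. Below 0 as deposited lay 61.4% of the 1344 genes and 25 of the 33 subunits. The subunits were spread more narrowly, which is a description with no test. Their log2 changes had an SD of 0.16 over the 33 genes, against 0.48 over the 1344, and 27 of 33 were within 1.2-fold (81.8%), against 54.8% of the genes at similar levels and 57.6% of all tested genes. Subunits of other large assemblies are given for comparison, with no test of the difference. The 15 vacuolar ATPase subunit genes had a median of -0.17 and an SD of 0.30, with 7 within 1.2-fold. The 138 cytosolic ribosomal protein genes had a median of -0.54 and an SD of 0.25, with 15 within 1.2-fold.

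**Figure D2:**
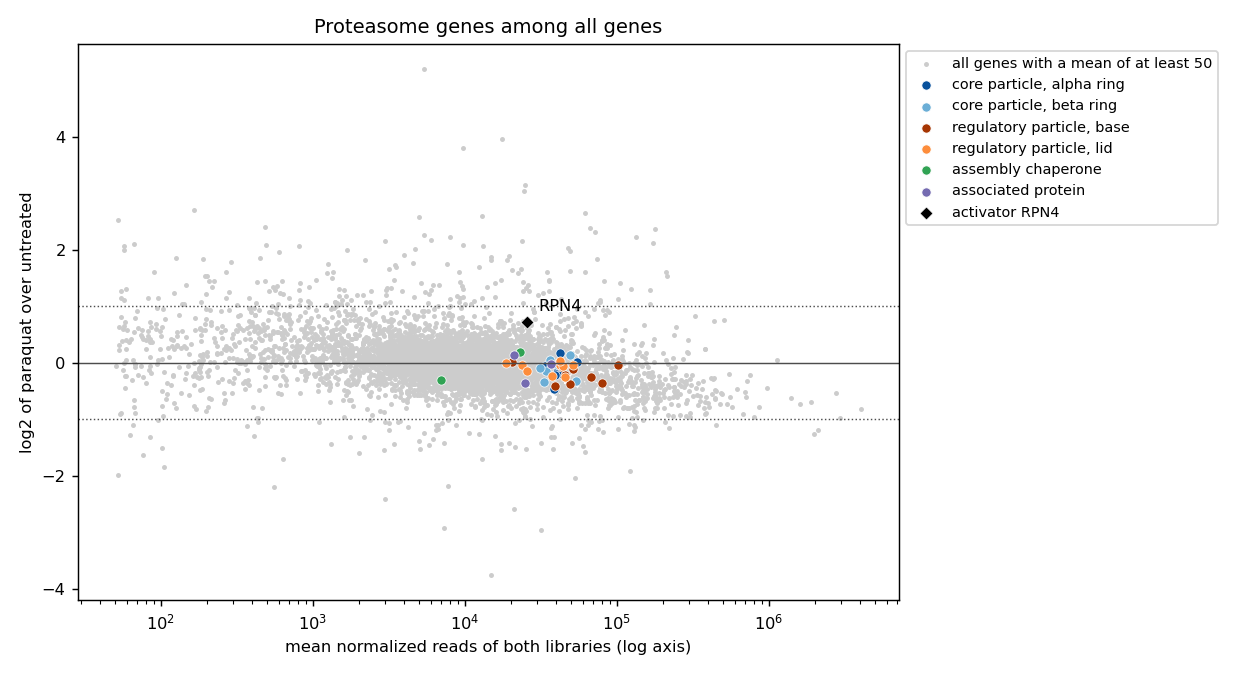
Log2 change (y axis) against mean normalized reads of both libraries (x axis, log scale) for the 5973 genes averaging 50 or more (grey) and the 39 members (coloured by role); dotted lines mark 2-fold. As deposited, the other 38 members lie between -0.47 and 0.19, and RPN4 stands above them at 0.72, short of 2-fold.

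The core and the regulatory particle differed little from each other. Core genes had a median of -0.12 over 14 and regulatory particle genes -0.08 over 19, a difference of -0.04 that turned to 0.01 when means were compared. The ranges overlapped, from -0.47 to 0.18 in the core and from -0.41 to 0.03 in the regulatory particle. As sums, core transcripts came to 547540 normalized reads after paraquat and 593341 without treatment, a ratio of 0.923. Regulatory particle transcripts came to 826597 after paraquat and 917475 without treatment, a ratio of 0.901. As a share of all reads on named genes the 33 subunits took 0.911% after paraquat (0.909 to 0.912, exact binomial) and 0.837% without treatment (0.835 to 0.838), so the share was slightly larger while the normalized sum was slightly smaller.

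In the alpha ring, which forms the outer gate of the barrel, members spread on both sides of 0. PUP2 had the lowest change of all members, with 32203 normalized reads after paraquat and 44629 without treatment, 1.39-fold lower (1.37 to 1.41). SCL1 had 45161 after paraquat and 39826 without treatment, 1.13-fold higher (1.12 to 1.15). PRE10 had 54745 after paraquat and 54422 without treatment and was within counting error of no difference (log2 change 0.01, fold 0.994 to 1.02). The neighbouring alpha genes PRE8 (-0.06), PRE5 (-0.17), PRE6 (-0.20) and PRE9 (-0.22), the last of which encodes the alpha subunit yeast can live without, filled the space between on the log2 scale. The alpha ring as a whole had a median of -0.17 over 7 genes, 2 above 0 and 5 below. Of all tested genes 50.3% lay below 0, and of the other genes at similar levels 61.4%.

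In the beta ring the genes of the 3 proteolytic subunits all lay below 0 as deposited. So did 50.3% of all tested genes and 61.4% of the other genes at similar levels. PRE2, which encodes the chymotrypsin-like subunit, had 47689 normalized reads after paraquat and 59811 without treatment, 1.25-fold lower (1.24 to 1.27). PRE3, for the caspase-like subunit, had 32396 after paraquat and 35867 without treatment, a log2 change of -0.15. PUP1, for the trypsin-like subunit, had 30206 after paraquat and 32323 without treatment, a log2 change of -0.10. Scaled to total gene reads, PRE2 alone of these 3 stayed below 0 (-0.07), where 21.4% of all tested genes lay. The 4 beta genes without a proteolytic site had a median of 0.01 and lay on both sides, from PRE7 at -0.35 through PRE4 at -0.05 and PRE1 at 0.06 to PUP3 at 0.13. PUP3 had 51258 normalized reads after paraquat and 46709 without treatment.

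In the base, the 6 ATPase genes RPT1 to RPT6 all lay below 0, with a median of -0.23. Below 0 lay 50.3% of all tested genes and 61.4% of the other genes at similar levels. RPT4 was the lowest, with 33795 normalized reads after paraquat and 44845 without treatment, 1.33-fold lower (1.31 to 1.35). RPT2 had 43006 after paraquat and 55509 without treatment, 1.29-fold lower (1.27 to 1.31). RPT3 came nearest to 0, at -0.08, and RPT6, RPT5 and RPT1 stood between, at -0.11, -0.22 and -0.25. When scaled to total gene reads, 4 of the 6 ATPase genes lay above 0, where 4693 of the 5973 tested genes lay. The median of all 6 was then 0.02. Of the non-ATPase genes of the base, the scaffolds parted. RPN1 had 70153 normalized reads after paraquat and 89908 without treatment, 1.28-fold lower (1.27 to 1.29), whereas RPN2 had 100755 after paraquat and 103119 without treatment, 1.02-fold lower (1.015 to 1.03). The ubiquitin receptor genes RPN10 (41975 after paraquat and 41844 untreated) and RPN13 (20432 after paraquat and 20293 untreated) differed by less than counting error.

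The lid had the narrowest spread. All 9 of its genes were within 1.2-fold, with a median of -0.05 and an SD of 0.10, against SDs of 0.16 in the base, 0.18 in the beta ring and 0.20 in the alpha ring. RPN11, the subunit that cuts ubiquitin from substrates, had 41956 normalized reads after paraquat and 43054 without treatment, and its partner RPN8 had 42362 after paraquat and 41584 without treatment. SEM1, the smallest lid subunit, had 18769 after paraquat and 18733 without treatment. On the log2 scale these genes lay at -0.04, 0.03 and 0.00. RPN5 (-0.25), RPN7 (-0.24) and RPN9 (-0.14) were the lowest, and RPN3, RPN6 and RPN12 lay between -0.05 and -0.04. RPN5 had 41521 normalized reads after paraquat and 49427 without treatment, 1.19-fold lower (1.17 to 1.21). Scaled to total gene reads, all 9 lid genes lay above 0, where 4693 of the 5973 tested genes lay.

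The remaining members pointed both ways. UMP1, the chaperone that matures the core particle and is then degraded, had 24464 normalized reads after paraquat and 21398 without treatment, 1.14-fold higher (1.12 to 1.16), which is the highest change after RPN4. RPN14, a chaperone of the ATPase ring, had 6195 after paraquat and 7669 without treatment, 1.24-fold lower (1.197 to 1.28). Scaled to total gene reads, UMP1 lay at 0.45 and RPN14 at -0.05 on the log2 scale. UBP6, a deubiquitinase bound to the regulatory particle, had 21750 after paraquat and 27880 without treatment, 1.28-fold lower (1.26 to 1.305). ECM29, which holds core and regulatory particle together, had 21894 after paraquat and 19917 without treatment, 1.10-fold higher (1.08 to 1.12). BLM10, an alternative cap of the core, had 36457 after paraquat and 37142 without treatment, 1.02-fold lower (1.004 to 1.03).

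Per length of coding sequence, the median subunit had 41654 normalized reads per coding kilobase after paraquat and 45953 without treatment. Over all 33 subunits the highest level was 4.03 times the lowest after paraquat and 3.33 times without treatment. In the core, levels per kilobase ran from PUP1 (38430) to PUP3 (82942) after paraquat and from PUP1 (41123) to PUP3 (75580) without treatment. The highest was thus 2.16 times the lowest after paraquat and 1.84 times without treatment. In the regulatory particle, levels ran from RPN9 (20590) to SEM1 (69516) after paraquat and from RPN9 (22667) to SEM1 (69380) without treatment. The SD of log2 levels was 0.30 after paraquat and 0.23 without treatment in the core, and 0.43 after paraquat and 0.37 without treatment in the regulatory particle. Log2 levels per coding kilobase correlated between libraries, with a Pearson r of 0.94 over the 33 subunits, a description over genes that share both libraries.

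Within the parts, PRE10 was highest in the alpha ring in both libraries (63143 per coding kilobase after paraquat and 62771 without treatment), and the lowest was PUP2 after paraquat (41128) but PRE8 without treatment (45953). In the base, RPN1 was lowest in both libraries (23525 after paraquat and 30150 without treatment), and the highest was RPN10 after paraquat (52013) but RPT1 without treatment (52342). RPN4 stood at 20033 per coding kilobase after paraquat and 12121 without treatment, which is 0.481 of the median subunit after paraquat and 0.264 without treatment. UMP1 was at subunit level (54729 after paraquat and 47870 untreated), while UBP6, BLM10, RPN14 and ECM29 lay below every subunit in both libraries.

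**Figure D3:**
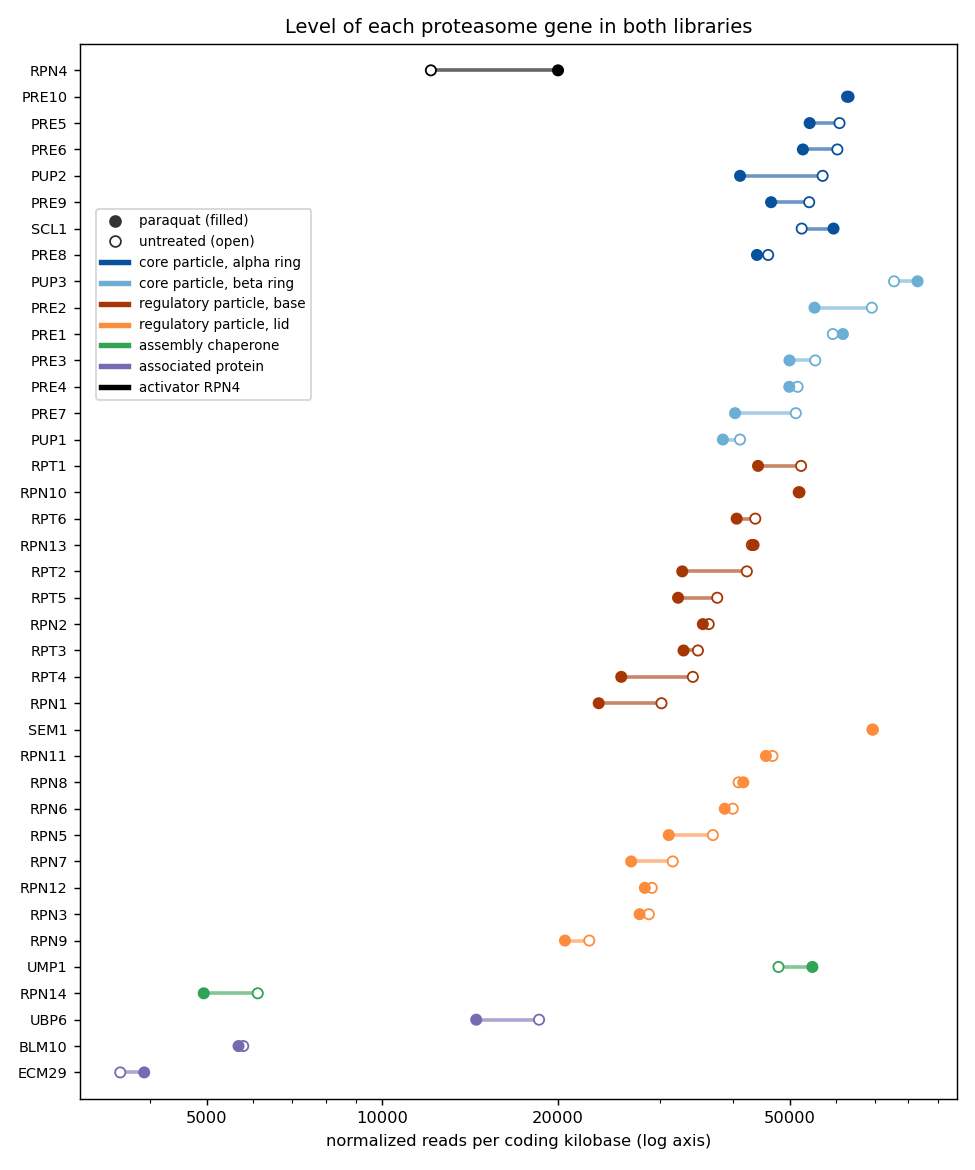
Normalized reads per coding kilobase (x axis, log scale) of each member after paraquat (filled) and without treatment (open), coloured by role, 1 library each. Core genes lie around 51354 after paraquat and 56174 without treatment, regulatory particle genes around 32896 after paraquat and 37584 without treatment (medians), and RPN4 lies below them, nearer after paraquat.

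Members with PACE did not stand above members without it. The 28 with PACE had a median log2 change of -0.12 and the 10 without it, RPN4 set aside, -0.01. With the shorter core of the motif, TGGCAAA, which 32 members and 7.28% of all promoters carried, the medians were -0.12 for those 32 and 0.00 for the other 6. Members without the 9 letters in the window are PRE5, PUP1, RPN8, RPN10, RPN13, SEM1, UMP1, RPN14, BLM10 and UBP6, and no match says only that these letters are absent from that window.

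**Figure D4:**
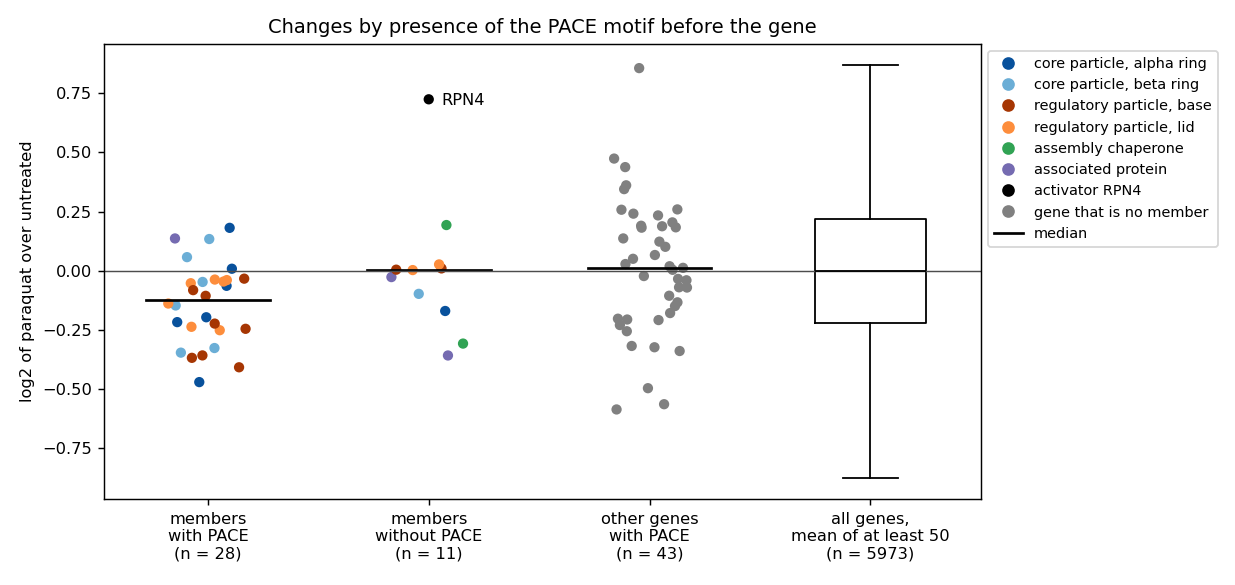
Log2 change (y axis) of members with PACE (28), members without it (11, RPN4 included), other genes with PACE (43) and all genes with a mean of at least 50 (box with median and quartiles, whiskers to 1.5 times the interquartile range, outliers not drawn). Horizontal bars are medians, at -0.12, 0.00 and 0.01 for the 3 groups of points.

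Among genes known to act on RPN4 or its product, YAP1 and UBR2 differed most. The 4 regulators listed for RPN4 all lay above 0, where 49.7% of all tested genes lay, with a median of 0.17. YAP1, the main regulator of the peroxide response, had 36481 normalized reads after paraquat and 26261 without treatment, 1.39-fold higher (1.37 to 1.41). YAP1 carries PACE in its window, and so do UBI4 (0.20), UBA1 (-0.07) and CDC48 (-0.34) among the other pathway genes, which lay on both sides of 0. HSF1, the heat shock regulator, was 1.21-fold higher (1.19 to 1.23), and the drug resistance regulators PDR1 and PDR3 were both 1.05-fold higher. Of the 4 genes whose products are known to tag Rpn4 for destruction or to act on related substrates, 3 lay above 0 (49.7% of all tested genes). The ligase gene UBR2 had 14328 after paraquat and 10565 without treatment, 1.36-fold higher (1.32 to 1.39), and UBR1 was lowest at -0.06.

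The other genes of the pathway also stayed within 2-fold. Over 47 genes in 9 lists, 0 reached 2-fold higher or lower, against 4.60% of all tested genes, and 20 lay above 0 (49.7% of all tested genes) and 27 below (50.3%), and the median was -0.07, or 0.19 when scaled to total gene reads. The 7 dedicated assembly chaperones outside the members had a median of -0.01, from NAS6 at -0.28 to IRC25 at 0.21. The 3 shuttle receptors, which bring ubiquitin-tagged proteins to the proteasome, all lay below 0 as deposited, where 50.3% of all tested genes lay. DSK2 was lowest at -0.36 and DDI1 nearest to 0 at -0.08, though DDI1 lay at 0.18 when scaled to total gene reads. For the unfoldase Cdc48 and its partners the median was -0.18 over 6 (0.08 when scaled to total gene reads), from CDC48 at -0.34 (153255 after paraquat and 193896 untreated) to NPL4 at 0.02.

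Ubiquitin genes and conjugating enzymes parted more widely. The fusion gene RPS31, which encodes ubiquitin joined to a ribosomal protein, was the lowest of the 47 at -0.60. The 138 cytosolic ribosomal protein genes, RPS31 included, had a median of -0.54, with 136 below 0. RPL40A lay at -0.32 and RPL40B at -0.47, and the stress-linked polyubiquitin gene UBI4 lay at 0.20. Ubiquitin repeats are alike between these genes, and RPL40A and RPL40B encode the same protein, so reads may be split uncertainly among them. UBC5 and UBC4, closely related conjugating enzymes, had opposite signs. UBC5 had 5560 normalized reads after paraquat and 3579 without treatment, 1.55-fold higher (1.49 to 1.62), the highest of the 47. UBC4 had 51934 after paraquat and 66553 without treatment, 1.28-fold lower (1.27 to 1.296). Deubiquitinases had a median of -0.19 over 6, from UBP15 at -0.50 to OTU1 at 0.16. The ligases HUL5 (-0.28) and HRD1 (0.28) bounded a list of 6 with a median of -0.00. SPG5, a factor known for proteasome assembly in stationary phase, had 10007 after paraquat and 6733 without treatment, 1.49-fold higher (1.44 to 1.53), and CIC1, an adaptor, lay at -0.15 in the same list of 4.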

How the data were processed

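Per the file headers, 1 deposited table gives, for each gene, the normalized signal of both libraries, a log2 fold change, a p-value and an adjusted p-value. From the values, the deposited signal is the gene's read count divided by 1 factor per library, since 100% of values are whole multiples, within 0.01 read, of 0.913 in the paraquat and 1.10 in the untreated column. Between a deposited log2 value and the ratio of both columns, the difference is at most 8.38e-05. Per the submitters' processing notes, Trimmomatic 0.36, STAR 2.5.2b, Subread 1.5.2, featureCounts and DESeq2 were among the tools. Not given in the sources used here are genome build, annotation, RNA selection and strandedness.

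The 1 row without a name (0.00675% of paraquat and 0.00449% of untreated reads) was left out. Each fold has a 95% Clopper-Pearson interval, an exact binomial one, from the split of its reads. A gene was tested if it averaged 50 or more normalized reads and called at 2-fold, with no pseudocount. The fold rule was tested on simulated counts, which cannot show the spread between these cultures. The members and lists were chosen with earlier results of these data known. Named genes are RPN4, the 3 highest and 3 lowest of each ring, the base and the lid, the chaperones and associated proteins, and the extremes of each other list. Further members were named after their values were seen. Coding lengths, names and promoters came from RefSeq R64, to which all 39 members matched; 0 of them overlap an annotated gene or have a near-identical copy (95% identity over 80% of length, BLAST+ 2.17.0). Scripts used Python 3.11.15, scipy 1.17.1, pandas 2.3.3, numpy 2.4.6 and matplotlib 3.10.9.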

Additional observations from a re-analysis of the deposited data

How the results depend on the processing

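Scaling to total gene reads moved the median log2 change of all members to 0.18 (-0.08 as deposited), that of the core to 0.14 (-0.12 as deposited), that of the regulatory particle to 0.18 (-0.08 as deposited) and RPN4 to 0.98 (0.72 as deposited), by the construction of that scaling. At a fold of 1.5 in place of 2, 1 member (RPN4) counted in place of 0. The core minus regulatory particle difference of -0.04 was 0.01 as means, 0.04 against the base alone and -0.08 against the lid alone. Its sign thus depended on the setting. All of these lay within 1 SD (0.16) of the subunits, a spread over single genes and not the error of this difference. Pseudocounts of 1 and 10, centring on the median gene, means, leaving out the largest change of each class, and no minimum mean kept the other values within that SD. As an interquartile range, the spread of log2 levels per coding kilobase was 0.39 after paraquat and 0.23 without treatment in the core, and 0.61 after paraquat and 0.40 without treatment in the regulatory particle. Leaving out members that overlap an annotated gene was not run, since 0 do. The longer promoter window was chosen after seeing the data and gave 28 members with PACE again. The Yap1 site of RPN4 was found in that longer window only. No paired analysis was possible because each group has 1 library. With 1 library each, depth is not the limit; the spread between cultures is unknown.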

Other observations

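Outside the proteasome, 43 tested genes carried PACE in the same window, with a median log2 change of 0.01, 23 above 0 and 20 below, where 49.7% and 50.3% of all tested genes lay, and 0 at least 2-fold either way, against 4.60% of all tested genes. For 7 of them the window overlaps that of a member, and without these the 36 others had a median of 0.01. YBR284W was highest at 0.86, with 3444 paraquat and 1586 untreated reads, followed by YAP1 at 0.47. The lowest were YCL042W at -0.59, ALG13 at -0.56, whose window overlaps that of RPT6, and DEF1 at -0.50. Genes other than the highest and lowest were named after their values were seen.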
